A study of Rattus norvegicus with 9 samples.

Results

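Histone deacetylases (HDACs) are enzymes that remove acetyl groups from lysines, and 10 zinc-dependent members of the family, Hdac1 to Hdac9 and Hdac11, were examined here by their gene symbols among the 37209 genes of the count table. All 10 had enough reads to be tested. RNA sequencing after rRNA depletion was performed on the frontal cortex of 9 male Wistar rats at 14 weeks of age, with 3 rats in each of 3 groups and 1 library per rat. Control rats (A1, A2 and A6) were left with their dams until weaning. Rats with maternal separation (MS rats B3, B4 and B6) were parted from the dam for 4 h on each day from postnatal day (PND) 1 to PND21. MS+EA rats (C3, C10 and C16) had the same separation and then, as adults, electroacupuncture (EA) under anesthesia at the acupoints GV20 (Baihui) and GV29 (Yintang) every other day from PND61 to PND81. The study's methods state that Control and MS rats received the anesthesia alone, so that every group would share it. The deposited treatment protocol can also be read as giving the acupuncture to Control and MS rats, and the grouping here follows the study's methods on this point. No sham-stimulated rats are among the 9 libraries, the litter of each rat is not given in the labels, and MS+EA differs from Control in both separation and stimulation.

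Acetylation of histone tails loosens chromatin, and its removal by HDACs generally goes with lower transcription. The class I enzymes Hdac1, Hdac2, Hdac3 and Hdac8 are mostly nuclear, and the first 3 act inside large co-repressor complexes. The class IIa proteins Hdac4, Hdac5, Hdac7 and Hdac9 have weak enzymatic activity of their own and shuttle between nucleus and cytoplasm: kinases phosphorylate them, 14-3-3 proteins then hold them in the cytoplasm, and in the nucleus they bind and repress MEF2 transcription factors. Hdac6, of class IIb, works mainly in the cytoplasm on tubulin and chaperones, and Hdac11 is the lone member of class IV. In neurons, HDACs have been studied as brakes on activity-dependent gene expression, with Hdac2 and Hdac3 linked to memory and Hdac5 to responses to stress and to antidepressants in rodents.

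In this tissue none of the 10 HDAC mRNAs passed the test in any of the 3 comparisons, and their differences lay between -0.38 and 0.17 on the log2 scale. Hdac5 was the 1 member whose level was lower in all 3 MS rats and all 3 MS+EA rats than in the lowest Control rat. A gene was called when its edgeR quasi-likelihood p, adjusted by Benjamini-Hochberg over the 16837 genes tested, was under 0.05 and its fold change over 1.5 either way. By this rule 0 of the 10 HDACs were called in MS relative to Control rats, where 0.0238% of all tested genes were (4 genes). It was 0 of 10 again in MS+EA relative to MS rats, against 0.0178% of tested genes (3 genes), and 0 of 10 in MS+EA relative to Control rats, against 1.37% (230 genes). DESeq2, the edgeR likelihood ratio test and limma-trend also called 0 of 10 in each comparison. At an unadjusted edgeR p under 0.05 there was 1 HDAC between MS and Control rats (10.6% of tested genes), 0 between MS+EA and MS rats (12.4%) and 1 between MS+EA and Control rats (22.5%), and this was Hdac5 both times. The values of the groups did not overlap for 1 HDAC between MS and Control rats (Hdac5, against 17.6% of tested genes), for 1 between MS+EA and MS rats (Hdac7, against 17.9%) and for 1 between MS+EA and Control rats (Hdac5, against 25.9%). These shares of HDACs are close to or below those of all tested genes.

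Levels are given as CPM, counts scaled to a common library size after TMM normalisation, in the order of the rats named above. CPM are not corrected for transcript length, so they serve to compare rats for 1 gene and not genes with each other. The libraries held 16153292 to 19007907 counts in Control, 16106381 to 17243320 in MS and 12479905 to 14913736 in MS+EA rats, so the MS+EA libraries were the shallowest. Markers of excitatory neurons were detected in every rat, with sums of 3416 to 4556 CPM. The MS rat B4 stood apart from the others in markers of neighbouring tissue: those of choroid plexus summed to 17.2 CPM in B4 and to 0.871 to 5.05 CPM elsewhere, mural and meningeal markers to 196 CPM against 63.1 to 119.8 CPM, and markers of subcortical neurons to 189.9 CPM against 112 to 144 CPM. Of the 8 subcortical genes, 5 were higher and 3 lower (Drd1, Drd2 and Ppp1r1b) in MS relative to Control rats. Oxt and Avp of this list varied widely among the MS rats, at 5.73 ± 9.02 and 11.3 ± 17.5 CPM (SD, n = 3). Without B4, 0 of the 10 HDACs were called in each comparison, and the values of Hdac5 without this rat are given below. Replicates were separate animals, and no pair of libraries agreed within sampling noise, with a chi-square per degree of freedom of 7.09 to 16.2 within groups.

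**Figure D1:**
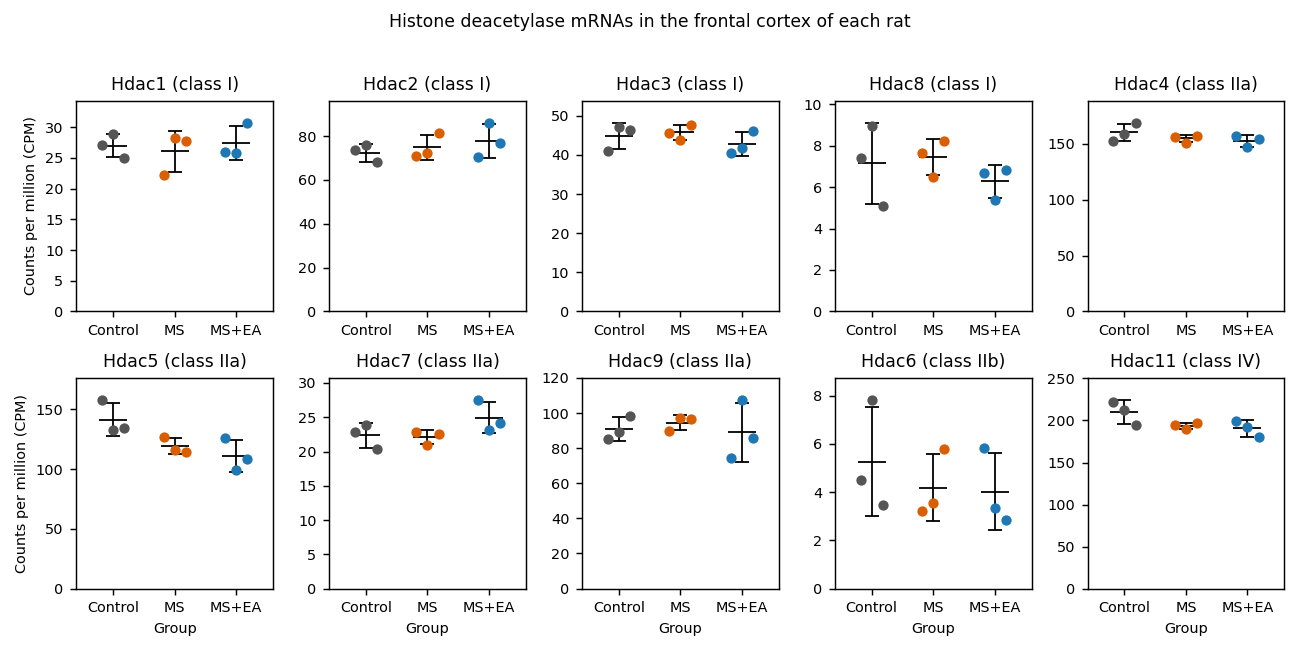
CPM (y axis, from 0, with its own scale in each panel) of the 10 HDAC genes in each rat, by group (x axis); points are rats, in the order A1, A2, A6, B3, B4, B6, C3, C10 and C16, and the horizontal mark with bars is the mean ± SD of 3 rats. The 3 groups overlap in most panels, whereas the 3 Control rats for Hdac5 (133 to 158 CPM) sit above all 6 separated rats (98.9 to 127 CPM).

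Hdac5 is a class IIa co-repressor whose export from the nucleus follows neuronal activity. It stood at 158, 133 and 134 CPM in the Control rats, at 127, 116 and 114 CPM in the MS rats and at 126, 98.9 and 108 CPM in the MS+EA rats. The Control rat A1 was the highest of the 9, the MS+EA rat C10 the lowest, and the MS and MS+EA rats overlapped. The means were 141 ± 14.0, 119 ± 6.69 and 111 ± 13.6 CPM (SD, n = 3 each), from 1363 to 2943 reads per rat. Against Control, MS rats had a log2 fold change of -0.25 (SE, the standard error, 0.0952, 95% confidence interval -0.45 to -0.04, adjusted p = 0.371 by edgeR). In MS+EA relative to Control rats it was -0.35 (SE 0.0957, 95% confidence interval -0.56 to -0.14, adjusted p = 0.0525 by edgeR), which is 0.785 of the Control level. Between MS+EA and MS rats it was -0.10 (SE 0.0959, 95% confidence interval -0.31 to 0.11, adjusted p = 0.699 by edgeR), and the MS+EA mean lay farther from the Control mean than the MS mean did. The intervals of all 3 comparisons lie inside a 1.5-fold change either way. The comparisons with Control share the same 3 Control rats, and those with MS share the same 3 MS rats.

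Whether the adjusted p of Hdac5 between MS+EA and Control rats fell under 0.05 depended on the processing. Over 18 alternatives its log2 fold change lay between -0.44 and -0.27, always below 0 and never past 1.5-fold, and its adjusted p between 0.0102 and 0.211. The adjusted p was under 0.05 in 5 of them: with every gene of at least 1 count tested (0.0102), with DESeq2 (0.0104), with edgeR's likelihood ratio test (0.0194), with limma-trend (0.0497) and without the rat C3 in edgeR's quasi-likelihood test (0.0250). Single rats moved it too. Without A1 it was -0.27 (adjusted p = 0.211 by edgeR), without C10 it was -0.27 (adjusted p = 0.140 by edgeR) and without C3 it was -0.44. The difference between MS and Control rats was -0.16 without A1 and -0.23 without B4 (adjusted p = 0.729 by edgeR), and the one between MS+EA and MS rats ranged from -0.03 without C10 to -0.20 without C3.

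**Figure D2:**
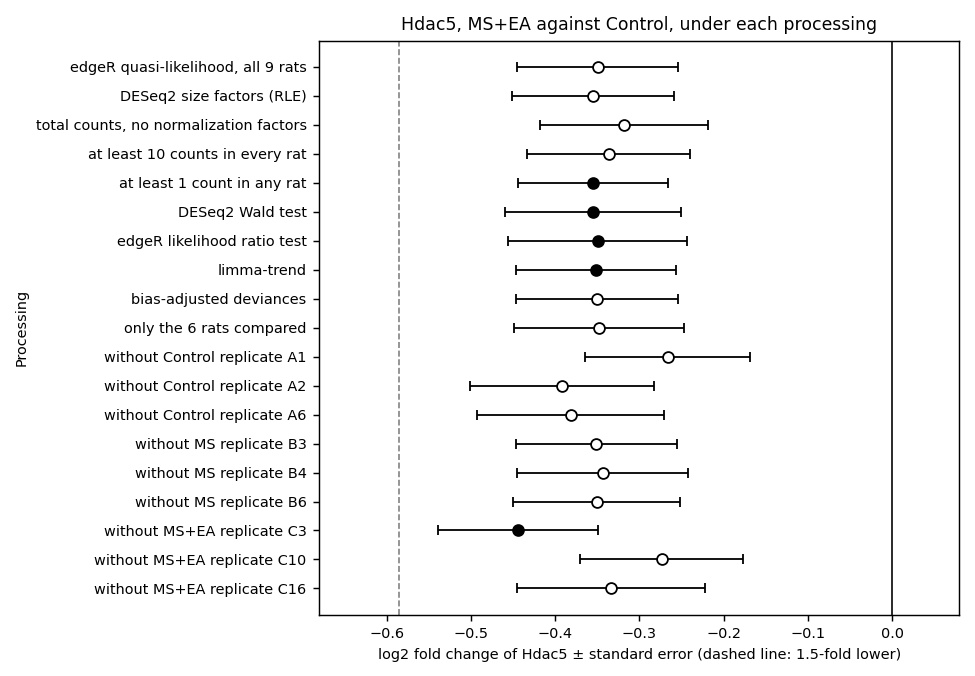
log2 fold change of Hdac5 between MS+EA and Control rats (x axis, ± standard error) under the processing used and 18 alternatives (y axis); filled points have an adjusted p under 0.05, and the dashed line marks a 1.5-fold lower level. All points lie between -0.44 and -0.27, and 5 are filled.

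Marker levels and library properties also differed between the groups. The 5 markers of red blood cells, of which none was at 0 in all rats, summed to 94.6 to 199 CPM in Control, 223 to 306 CPM in MS and 211 to 304 CPM in MS+EA rats, so that all 6 separated rats lay above all Control rats, the same split of the rats as for Hdac5. The 6 markers of excitatory neurons, of which none was at 0 in all rats, summed to 3931 to 4556 CPM in Control, 3991 to 4048 CPM in MS and 3416 to 3551 CPM in MS+EA rats, so that the MS+EA rats lay below all others. Among single tested genes, 17.6% did not overlap between MS and Control, 17.9% between MS+EA and MS and 25.9% between MS+EA and Control rats. Of the 6 excitatory genes, 4 were lower and 2 higher in MS+EA than in Control rats. For 2 of the 6 the adjusted p in that comparison was under 0.05, as it was for 5.4% of all tested genes. One was Slc17a7, the vesicular glutamate transporter (log2 fold change -0.30, SE 0.0629, adjusted p = 0.0207 by edgeR). The share of reads on lncRNA genes was 0.798% to 0.908% in Control, 0.852% to 0.964% in MS and 0.976% to 1.13% in MS+EA rats. The part of depth, of lncRNA share and of red blood cell and excitatory markers in the Hdac5 values was not tested. In bulk tissue, fewer cells of a type and less RNA per cell cannot be told apart.

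Over the 9 rats, the genes whose log2 CPM followed that of Hdac5 most closely were Rpl10a (Pearson r = 0.970), Mcrs1 (0.968), Rpl28 (0.967), Bak1 (0.966) and Wiz (0.965), among 16836 genes compared. Rpl10a and Rpl28 encode ribosomal proteins of the large subunit, and Bak1 encodes a pro-apoptotic protein of the Bcl2 family. Rpl10a, like Hdac5, had its highest mean in Control rats (29.0 ± 2.45 CPM, SD, n = 3), with 25.0 ± 1.43 CPM in MS and 23.2 ± 2.71 CPM in MS+EA rats. Among the HDACs, Hdac11 was the most alike (r = 0.79, rank 594) and Hdac2 the least (r = -0.65). These correlations are descriptions over 9 libraries that share their normalisation and group structure.

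The sequence upstream of the Hdac5 start is shown because class IIa HDACs are known as repressors of MEF2 factors, and a match to the MEF2 consensus lies within it. RefSeq promoters of the rat assembly GRCr8, from 250 bases before to 50 bases after the annotated start, were at hand for 9 of the 10 members, all except Hdac11. The window printed is chr10:87688078-87688304 on the minus strand, 227 bases that run from position -250 to -24 relative to the start, with the MEF2 match (-52 to -43) and an E-box (-29 to -24) in capitals.
Hdac5 promoter: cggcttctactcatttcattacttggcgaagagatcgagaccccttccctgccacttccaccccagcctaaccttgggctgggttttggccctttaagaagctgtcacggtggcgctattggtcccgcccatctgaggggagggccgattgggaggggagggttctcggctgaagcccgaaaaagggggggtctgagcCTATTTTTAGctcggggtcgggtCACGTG
The MEF2 consensus, of which the match here reads CTATTTTTAG, occurs in 3.29% of 33469 promoters of the same length, the E-box CACGTG in 6.42%, and both in 0.131% (44 promoters), with both strands searched. Of the 9 member promoters, Hdac5 was the only one to hold either. The letters TGACG, which at Hdac5 lie partly or wholly downstream of the printed window (1 match overlaps the E-box), were in 4 of the 9 (21.2% of all promoters), CCAAT was in 5 (37.5%) and the GC box GGGCGG in 6 (33.1%). These motifs were chosen after the promoter had been read, and a match is a description of the sequence and not a site shown to be bound.

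For the other class IIa genes, the MS and MS+EA rats overlapped the Control rats. Hdac4, which represses MEF2 targets and is needed for learning in mice, was at 153, 159 and 169 CPM in Control, 157, 151 and 157 CPM in MS and 157, 147 and 154 CPM in MS+EA rats. All 3 groups overlapped, and Hdac4 was the steadiest member. Its biological coefficient of variation, the rat-to-rat spread within groups beyond counting error, was 6.13%, and 1.59% of tested genes had a lower one. The log2 fold changes were -0.05 in MS relative to Control rats (SE 0.0623, adjusted p = 0.832 by edgeR), -0.02 in MS+EA relative to MS rats (adjusted p = 0.923 by edgeR) and -0.07 in MS+EA relative to Control rats (adjusted p = 0.560 by edgeR), with 95% confidence intervals that stayed between -0.20 and 0.12.

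Hdac9, also a repressor of MEF2 activity, was at 85.0, 89.5 and 98.6 CPM in Control, 89.6, 97.4 and 96.7 CPM in MS and 74.2, 107 and 85.8 CPM in MS+EA rats. The MS+EA group held both the lowest and the highest of the 9 rats, C3 and C10, and thus spanned the other groups. Its log2 fold changes were 0.06 (SE 0.112, adjusted p = 0.901 by edgeR) in MS relative to Control rats, -0.09 (adjusted p = 0.793 by edgeR) in MS+EA relative to MS rats and -0.03 (adjusted p = 0.907 by edgeR) in MS+EA relative to Control rats.

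Hdac7 is known for its role in endothelial cells and lymphocytes. It was at 22.9, 23.9 and 20.4 CPM in Control, 22.9, 20.9 and 22.5 CPM in MS and 27.5, 23.2 and 24.2 CPM in MS+EA rats. The lowest MS+EA rat lay just above the highest MS rat but below the highest Control rat. In MS+EA relative to MS rats the log2 fold change was 0.17 (SE 0.105, 95% confidence interval -0.05 to 0.40, adjusted p = 0.518 by edgeR), in MS+EA relative to Control rats 0.16 (adjusted p = 0.407 by edgeR) and in MS relative to Control rats -0.02 (adjusted p = 0.971 by edgeR). Endothelial markers, with 5 of the 6 listed genes analysed, summed to 121 to 137 CPM in Control, 153 to 177 CPM in MS and 131 to 161 CPM in MS+EA rats, and their part in the Hdac7 values was not tested.

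Summed over the 4 class IIa genes, the level was 405 to 421 CPM in Control, 386 to 396 CPM in MS and 372 to 385 CPM in MS+EA rats, with no overlap between any groups. Among single tested genes, 17.6% did not overlap between MS and Control, 17.9% between MS+EA and MS and 25.9% between MS+EA and Control rats. Sums of other genes were not compared. Without Hdac5 the class IIa sum was 261 to 288, 269 to 276 and 259 to 277 CPM, and all groups overlapped. Ratios of reads within a rat, chosen after these values were seen, do not depend on library size. There were 1.03, 0.835 and 0.795 Hdac5 reads per Hdac4 read in Control, 0.810, 0.769 and 0.728 in MS and 0.800, 0.674 and 0.703 in MS+EA rats, and all groups overlapped (exact permutation p = 0.2 for MS and for MS+EA against Control, and 0.4 for MS+EA against MS, two-sided). Hdac5 reads per Hdac7 read were 6.34 ± 0.697 in Control, 5.39 ± 0.268 in MS and 4.44 ± 0.160 in MS+EA rats (SD, n = 3). The MS+EA rats lay below both other groups (exact permutation p = 0.1 each). That is the smallest p that 3 rats against 3 can give, and it follows from the lack of overlap alone. Between MS+EA and MS rats this ratio reflects both genes, with log2 fold changes of 0.17 for Hdac7 and -0.10 for Hdac5. Hdac7 alone also did not overlap between these groups, whereas Hdac5 did. Hdac5 reads per Hdac9 read overlapped between all groups, and adjusted over the 9 ratio tests the lowest exact p was 0.3. Because the ratios were chosen from these same values, their p values are descriptions and not evidence of a difference. Ratios of other gene pairs were not compared.

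For the class I HDACs, of which Hdac1, Hdac2 and Hdac3 are catalytic subunits of nuclear co-repressor complexes, no difference passed the test. Hdac1 was at 27.2, 28.8 and 25.1 CPM in Control, 22.2, 28.3 and 27.7 CPM in MS and 26.0, 25.7 and 30.7 CPM in MS+EA rats. Its close relative Hdac2, which limits synapse number and memory in mice, was at 73.5, 76.0 and 68.0 CPM in Control, 70.8, 72.5 and 81.5 CPM in MS and 70.3, 86.0 and 76.9 CPM in MS+EA rats. For both genes the groups overlapped in every comparison. Their log2 fold changes lay between -0.05 and 0.10, and their 95% confidence intervals between -0.30 and 0.33. The edgeR adjusted p was 0.910 for Hdac1 and 0.892 for Hdac2 in MS relative to Control rats, 0.833 and 0.843 in MS+EA relative to MS rats, and 0.936 and 0.540 in MS+EA relative to Control rats.

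Hdac3, the enzyme of the NCoR/SMRT complex, was at 41.1, 47.2 and 46.3 CPM in Control, 45.7, 43.9 and 47.7 CPM in MS and 40.4, 41.8 and 46.2 CPM in MS+EA rats. The groups overlapped, with C3 the lowest rat and B6 the highest. Its log2 fold changes were 0.03 (SE 0.0854, adjusted p = 0.933 by edgeR) in MS relative to Control rats, -0.10 (adjusted p = 0.679 by edgeR) in MS+EA relative to MS rats and -0.07 (adjusted p = 0.694 by edgeR) in MS+EA relative to Control rats. Hdac8, which deacetylates the cohesin subunit Smc3, had few reads, from 80 to 147 per rat. It was at 7.39, 8.96 and 5.10 CPM in Control, 7.64, 6.50 and 8.24 CPM in MS and 6.66, 5.36 and 6.84 CPM in MS+EA rats, and the Control rats A2 and A6 spanned all others. Its log2 fold changes were 0.06 (adjusted p = 0.945 by edgeR), -0.25 (adjusted p = 0.658 by edgeR) and -0.19 (adjusted p = 0.638 by edgeR) in the same order, with SEs of 0.205 to 0.209. A 1.5-fold lower Hdac8 level in MS+EA rats lies inside the 95% confidence intervals, which reached -0.70 and -0.64. The summed level of class I was 144 to 161 CPM in Control, 146 to 165 CPM in MS and 143 to 161 CPM in MS+EA rats.

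Hdac6 removes acetyl groups from tubulin and Hsp90 and takes part in the clearance of ubiquitinated proteins. It had 36 to 128 reads per rat and stood at 4.50, 7.81 and 3.48 CPM in Control, 3.21, 3.56 and 5.77 CPM in MS and 5.83, 3.35 and 2.86 CPM in MS+EA rats. Each group held 1 rat well above the other 2, namely A2, B6 and C3, and all groups overlapped. The log2 fold changes were -0.33 (SE 0.344, adjusted p = 0.779 by edgeR) in MS relative to Control rats, -0.05 (SE 0.353, adjusted p = 0.968 by edgeR) in MS+EA relative to MS rats and -0.38 (SE 0.348, adjusted p = 0.556 by edgeR) in MS+EA relative to Control rats. Without A2 both differences from Control changed sign, to 0.06 and 0.01. The biological coefficient of variation was 28.9%, above that of 88.4% of tested genes. The 95% confidence intervals all reached past a 1.5-fold lower level, and that of MS+EA relative to MS rats, from -0.82 to 0.71, also past a 1.5-fold higher one.

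Hdac11, which removes long fatty acyl groups as well as acetyl groups, is strongly expressed in brain. It was at 222, 213 and 195 CPM in Control, 194, 189.9 and 197 CPM in MS and 199, 192 and 179.9 CPM in MS+EA rats. The Control rats A1 and A2 were the highest of the 9, whereas A6 lay among the separated rats. The log2 fold changes were -0.12 in MS relative to Control rats (SE 0.0676, 95% confidence interval -0.26 to 0.03, adjusted p = 0.567 by edgeR), -0.14 in MS+EA relative to Control rats (SE 0.0678, 95% confidence interval -0.29 to 0.01, adjusted p = 0.244 by edgeR) and -0.02 in MS+EA relative to MS rats (adjusted p = 0.914 by edgeR). With a biological coefficient of variation of 6.57%, lower than in all but 5.15% of tested genes, Hdac11 was measured precisely enough to bound each difference well inside 1.5-fold.

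Across the 10 genes, the log2 fold changes had a median of -0.03 between MS and Control rats, -0.04 in MS+EA relative to MS rats and -0.07 in MS+EA relative to Control rats, beside medians of 0.00, 0.00 and 0.01 over all tested genes. Lower values were seen for 6, 7 and 7 of the 10 genes. The 95% confidence interval lay inside a 1.5-fold change either way for 9 genes in MS relative to Control rats, where Hdac6 was the exception, and for 8 in each of the other comparisons, where the exceptions were Hdac6 and Hdac8. The CPM of all 10 genes together summed to 764 to 794 in Control, 730 to 758 in MS and 716 to 733 in MS+EA rats, and without Hdac5 to 630.3 to 654, 613 to 644 and 608 to 632, so that without Hdac5 all groups overlapped. Annotated RNAs overlap the genomic spans of Hdac4, Hdac6, Hdac7, Hdac9 and Hdac11 in RefSeq's GRCr8 annotation. Whole spans were compared, not exons or strands, and the reads were mapped to the assembly Rnor_6.0. The strand setting of the counting is not given in the sources used here. Whether reads of these neighbours were counted with those of the HDACs was not tested.

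**Figure D3:**
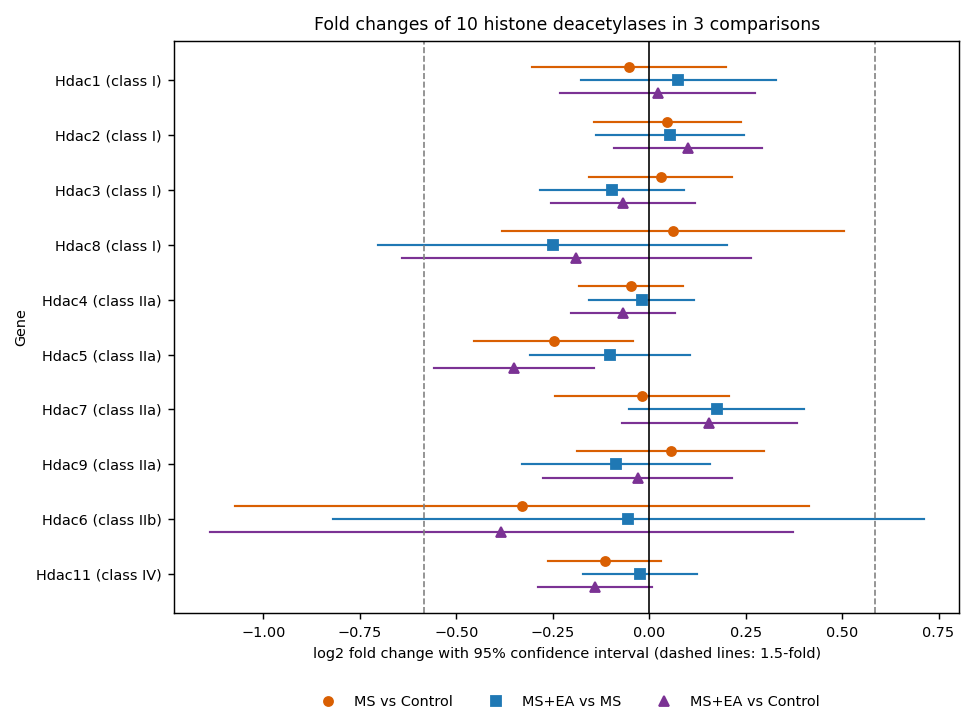
log2 fold change (x axis) with 95% confidence interval for each HDAC (y axis, ordered by class) in MS relative to Control, MS+EA relative to MS and MS+EA relative to Control rats; dashed lines mark 1.5-fold. The intervals of Hdac5 against Control lie below 0 in both comparisons, from -0.45 to -0.04 and from -0.56 to -0.14, while those of Hdac6 and, in the comparisons with MS+EA rats, Hdac8 cross a dashed line.

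HDACs act with partners, and 74 partner genes in 8 lists were followed in the same fit, of which 70 were tested; Brms1, Brms1l and Mef2b had too few reads, and Rcor1 was not analysed here. None of the 70 was called in any of the 3 comparisons by edgeR's test and thresholds. At an unadjusted edgeR p under 0.05 there were 5 in MS relative to Control rats (7.14% of the 70, beside 10.6% of all tested genes), 5 in MS+EA relative to MS rats (7.14%, beside 12.4%) and 17 in MS+EA relative to Control rats (24.3%, beside 22.5%). For 2 partners the adjusted p was under 0.05 between MS+EA and Control rats with a fold change under 1.5, as it was with any fold for 5.4% of all tested genes. In the other comparisons no partner had one, against 0.0238% of tested genes in MS relative to Control and 0.0178% in MS+EA relative to MS rats. Both partners come from the lists around class IIa HDACs. Camk2a, a calcium/calmodulin-dependent kinase that is also among the excitatory markers above, was at 2269 ± 287 CPM in Control, 2153 ± 87.4 CPM in MS and 1770 ± 102 CPM in MS+EA rats (SD, n = 3), for a log2 change of -0.36 (SE 0.0891, adjusted p = 0.0387 by edgeR). Mef2d, a MEF2 transcription factor, was at 313 ± 21.1, 286 ± 4.98 and 261 ± 8.72 CPM (SD, n = 3), for a log2 change of -0.26 (SE 0.0652, adjusted p = 0.0400 by edgeR). Between MS and Control rats these genes had adjusted p values of 0.813 and 0.499 by edgeR. In MS+EA relative to MS rats the log2 fold changes were -0.28 for Camk2a (adjusted p = 0.260 by edgeR) and -0.13 for Mef2d (adjusted p = 0.440 by edgeR). For both genes the MS+EA and MS rats did not overlap, as for 17.9% of tested genes.

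Among the class IIa kinases, 11 of 15 were lower in MS+EA than in Control rats, with a median log2 fold change of -0.11, and 7 higher and 8 lower in MS relative to Control rats. Mark2, a kinase of class IIa HDACs, had the smallest p of that list between MS and Control rats (log2 fold change -0.14, adjusted p = 0.473 by edgeR). The other tested MEF2 genes had log2 fold changes of 0.10 for Mef2a and 0.02 for Mef2c in MS+EA relative to Control rats. The 6 tested genes of 14-3-3 proteins had a median of -0.08 in that comparison, with Ywhag the leading gene (-0.14, adjusted p = 0.243 by edgeR). Ywhaq between MS and Control rats (0.08, adjusted p = 0.777 by edgeR) and Ywhab between MS+EA and MS rats (-0.12, adjusted p = 0.553 by edgeR) had the smallest p of their comparisons.

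In the complexes that hold class I HDACs, no gene had an adjusted p under 0.05 in any comparison. In the NuRD complex, which couples deacetylation to chromatin remodelling, 9 of 12 genes were lower in MS+EA than in Control rats (median log2 fold change -0.10). Its ATPase Chd3 was at 966 ± 52.1 CPM in Control, 829 ± 43.7 CPM in MS and 804 ± 66.7 CPM in MS+EA rats (SD, n = 3), with log2 fold changes of -0.22 (adjusted p = 0.301 by edgeR) and -0.26 (adjusted p = 0.0624 by edgeR) relative to Control rats. Gatad2a led the NuRD list between MS+EA and MS rats (-0.23, adjusted p = 0.388 by edgeR). In the CoREST complex, which pairs Hdac1 and Hdac2 with a histone demethylase, 6 of 9 tested genes were lower in MS+EA than in Control rats, and its leading gene Zmym2 was higher (0.23, adjusted p = 0.0653 by edgeR, and 0.15 in MS relative to Control rats, adjusted p = 0.451 by edgeR). Rest, the repressor that recruits CoREST, had a log2 fold change of -0.37 (adjusted p = 0.396 by edgeR) in MS+EA relative to MS rats.

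In the Sin3 complex, 13 of 15 genes were tested, and Sap18 had the smallest p in all 3 comparisons, with log2 fold changes of 0.15, 0.21 and 0.37 (adjusted p = 0.731, 0.548 and 0.136 by edgeR). For the NCoR/SMRT complex, the partner of Hdac3, the leading gene was Tbl1x against Control, at 0.11 in MS (adjusted p = 0.541 by edgeR) and 0.19 in MS+EA rats (adjusted p = 0.0981 by edgeR), and Tbl1xr1 between MS+EA and MS rats, with few reads (1.68 ± 0.405 against 1.15 ± 0.254 CPM, SD, n = 3, log2 fold change 0.55, SE 0.338, adjusted p = 0.535 by edgeR). Among 9 cytoplasmic partners of Hdac6, 7 were lower in each comparison. Tuba4a, a tubulin and thus a kind of Hdac6 substrate, had log2 fold changes of -0.26 (adjusted p = 0.0510 by edgeR) in MS+EA relative to Control and -0.21 (adjusted p = 0.299 by edgeR) in MS+EA relative to MS rats. The chaperone Hsp90aa1 was at 41.1 ± 2.83 CPM in MS and 34.1 ± 2.40 CPM in Control rats (SD, n = 3, log2 fold change 0.27, adjusted p = 0.273 by edgeR).

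**Figure D4:**
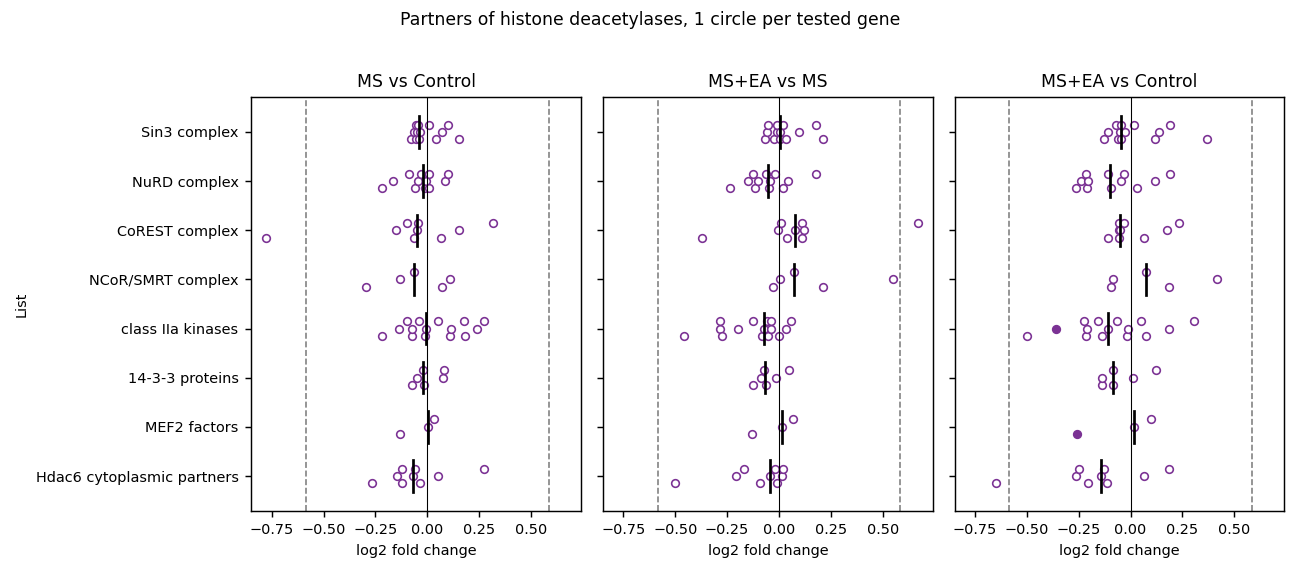
log2 fold change (x axis) of each tested partner gene (circles) by list (y axis) in the 3 comparisons; bars are list medians, dashed lines mark 1.5-fold, and filled circles have an edgeR adjusted p under 0.05. The filled circles are Camk2a (-0.36) and Mef2d (-0.26) in MS+EA relative to Control rats, both inside the dashed lines.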

How the data were processed

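After rRNA depletion the libraries were run on a HiSeq X instrument, and the authors mapped the reads to the rat genome Rnor_6.0 with HISAT2 2.0.4 (submitters' processing notes) and deposited raw counts per gene, 1 column per rat. The counting program, its strand setting and its handling of multi-mapped reads are not given in the sources used here. From these counts, library sizes were scaled by TMM, genes were kept by edgeR's filterByExpr (minimum count 10) and a quasi-likelihood model took in all 9 rats, with a mean for each group (R 4.3.3, edgeR 4.0.16). P-values were adjusted by Benjamini-Hochberg over 16837 genes. Standard errors were taken from the fold change and its F statistic, and 95% confidence intervals from the t distribution with the fitted degrees of freedom. Alternatives were DESeq2 1.42.0, limma 3.58.1 (limma-trend, prior count 2), the edgeR likelihood ratio test, other scalings and filters, and each rat left out. The study's own test, EBSeq, was not run. The code was tested on simulated data. The HDACs and all gene lists were chosen with earlier results of these data known. All 10 HDACs are named; from each partner list every called gene, or else the gene with the smallest p in each comparison; and the 5 genes most correlated with the HDAC of smallest p. Mef2a and Mef2c complete the MEF2 list and were named after their values were seen, as was Rpl10a with its levels. Promoters are RefSeq's, on GRCr8.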

Additional observations from a re-analysis of the deposited data

How the results depend on the processing

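The number of HDACs called stayed at 0 in each comparison under every one of 57 recomputed counts, including adjusted p without a fold threshold in the edgeR quasi-likelihood fit. Of 540 recomputed fold changes, 514 kept their sign, 26 turned it and 0 became a call. With 1 rat left out, the log2 fold changes of MS relative to Control rats ranged from -0.12 to 0.0494 for Hdac1, -0.0182 to 0.0852 for Hdac2, -0.0308 to 0.0629 for Hdac3, -0.13 to 0.25 for Hdac8, -0.0815 to 0.0252 for Hdac7 and -0.63 to 0.0579 for Hdac6. Those of MS+EA relative to MS rats ranged from -0.0287 to 0.14 for Hdac1, -0.0256 to 0.13 for Hdac2, -0.0349 to 0.00754 for Hdac4, -0.24 to 0.0369 for Hdac9, -0.42 to 0.25 for Hdac6 and -0.0518 to 0.0146 for Hdac11. Those of MS+EA relative to Control rats ranged from -0.0642 to 0.0726 for Hdac1, -0.37 to 0.00516 for Hdac8, -0.19 to 0.0913 for Hdac9 and -0.75 to 0.0111 for Hdac6. Scaling by total counts turned Hdac4 to 0.0233 and Hdac11 to 0.0191 in MS+EA relative to MS rats. Hdac5 kept its sign in all alternatives of all 3 comparisons, and its adjusted p against Control, given above, crossed 0.05 in MS+EA rats. The cause of these shifts was not tested. Hdac6 had 36 to 128 reads per rat and a biological coefficient of variation of 28.9%, and Hdac8 had 80 to 147 reads and 17.1%. No paired analysis was possible because each group held other animals, whose names share at most 1 number between groups.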

Other observations

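Sirtuins, the NAD-dependent deacetylases of class III, were all tested, and 1 of 7 had an adjusted p under 0.05 in MS+EA relative to Control rats, as 5.4% of all tested genes did. Sirt1, which deacetylates histones and transcription factors, was at 22.3 ± 1.31 CPM in Control, 26.9 ± 0.493 CPM in MS and 30.7 ± 4.33 CPM in MS+EA rats (SD, n = 3), and no groups overlapped, as for 17.6% of tested genes between MS and Control, 17.9% between MS+EA and MS and 25.9% between MS+EA and Control rats. Its log2 fold change was 0.46 (SE 0.108, adjusted p = 0.0317 by edgeR) in MS+EA relative to Control rats, short of 1.5-fold, 0.27 (adjusted p = 0.382 by edgeR) in MS relative to Control rats and 0.19 (adjusted p = 0.492 by edgeR) in MS+EA relative to MS rats. Sirt7, the nucleolar sirtuin, had the smallest p between MS+EA and MS rats, at 17.8 ± 1.30 against 14.0 ± 2.34 CPM (SD, n = 3, log2 fold change 0.35, adjusted p = 0.352 by edgeR). Of the 7 sirtuin genes, 4 were lower in MS+EA than in Control rats, with a median of -0.10.

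Histone acetyltransferases, which add what HDACs remove, included 0 of 12 genes with an adjusted p under 0.05 by edgeR in any comparison. At an unadjusted p under 0.05 there were 0 in MS relative to Control rats (10.6% of all tested genes), 1 of 12 in MS+EA relative to MS rats (12.4%) and 1 of 12 in MS+EA relative to Control rats (22.5%). These were Ncoa1, a nuclear receptor co-activator (log2 fold change -0.16, adjusted p = 0.322 by edgeR), and Kat6b (-0.18, adjusted p = 0.147 by edgeR). Kat6b also had the smallest p between MS and Control rats (-0.11, adjusted p = 0.586 by edgeR).

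Hdac10, the remaining classical HDAC and a polyamine deacetylase, is in the count table but not among the 10 genes above, and its values were seen before it was added. It was at 8.72, 10.8 and 10.1 CPM in Control, 10.4, 7.94 and 9.56 CPM in MS and 13.5, 11.7 and 8.82 CPM in MS+EA rats. All groups overlapped, and the log2 fold changes were -0.08 (adjusted p = 0.906 by edgeR) in MS relative to Control rats, 0.29 (adjusted p = 0.521 by edgeR) in MS+EA relative to MS rats and 0.21 (adjusted p = 0.524 by edgeR) in MS+EA relative to Control rats.

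Other cell type markers were compared as sums over each list. Mural and meningeal markers summed to 64.5 to 69.8 CPM in Control, 80.6 to 196 CPM in MS and 63.1 to 119.8 CPM in MS+EA rats. Markers of inhibitory neurons (474 to 633 CPM over the 9 rats), astrocytes (3223 to 3965 CPM), oligodendrocytes (1830.5 to 4176 CPM), oligodendrocyte precursors (211 to 304 CPM), microglia (185 to 251 CPM) and subcortical neurons (112 to 189.9 CPM) overlapped between all 3 groups.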
